A study of Homo sapiens with 12 samples.

Results

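The comparison set a carfilzomib-resistant derivative of the human myeloma cell line KMS-34, named KMS-34/Cfz, against the parental KMS-34 line it was selected from, over all genes of a whole-transcriptome array. Its members were the 6 arrays whose cell line label reads KMS-34/Cfz (3 arrays) or KMS-34 (3 arrays), out of 12 arrays in the series, and 19775 genes were tested. KMS-34/Cfz cells had been selected stepwise until they grew in 12 nM carfilzomib, and were then grown for 1 week without the drug before RNA was taken, while KMS-34 cells had never been selected. The other 6 arrays, 3 each of KMS-11/Cfz and KMS-11, a second myeloma line handled in the same way, entered the fit for the estimate of the spread and for the test of whether a change differed between the lines. Both parental lines carry the t(4;14) translocation of myeloma. KMS-34/Cfz is 1 selected culture and not a set of independently selected ones, so any difference from KMS-34 is a difference between these 2 cultures. The labels do not say that the 3 replicates of a line were grown separately, so the p-values below measure the spread between these arrays, which may be technical.

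Myeloma is a cancer of plasma cells, the B lymphocyte stage that makes and secretes immunoglobulin. Such cells depend on the proteasome, the protease complex that degrades ubiquitin-tagged proteins, because much of the protein entering their endoplasmic reticulum (ER) is misfolded and must be destroyed. Carfilzomib blocks the proteasome irreversibly. Cells grown in such a drug can differ from their parents in drug export, protein quality control, autophagy and differentiation state.

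The deposited values were log2 intensities already centred within each probe set over the arrays, so they hold differences between arrays and no level of any gene. Whether the cells express the genes that define a plasma cell can therefore not be read from them. Values below are given for each gene as the 3 KMS-34/Cfz arrays in the order of their replicate numbers, each minus the mean of the 3 KMS-34 arrays, on the log2 scale, and changes are given with their standard error (SE) from limma. A gene was called as risen or fallen when its Benjamini-Hochberg adjusted p over all 19775 genes was below 0.05. Each group had n = 3 arrays throughout. A gene's value is the mean of its probe sets. Of the called genes named below 112 have more than 1, and in 16 of these at least 1 probe set changed by less than 0.15 in the direction of the mean: ANXA2, CAPN2, CX3CR1, DNAJC10, GBP1, HBB, IRF4, MKX, NCAM1, PARP14, PECAM1, PLCG2, PLSCR1, S100A10, SDHC and SESN3. In DNAJC10, GBP1, PLCG2 and SESN3, whose means rose, the lowest probe set changed the other way, at -0.11, -0.04, -0.23 and -0.02. In NCAM1, whose mean fell, the highest did so, at 0.18. Genes outside these 16 could also differ in size between probe sets. Those of MYO10 ran from 0.154 to 1.466 (2 of 5 passed) and those of MCOLN3 from 0.168 to 1.029 (2 of 4). In MAML2 they read 0.202 and 1.382 and in STMN3 0.579 and 1.595, with 1 passing in each. Fewer cells of one kind and less RNA per cell cannot be told apart in a bulk culture.

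One array stood apart. KMS-34/Cfz replicate 1 had correlations of 0.837 and 0.788 with the other KMS-34/Cfz arrays, which correlated with each other at 0.935, whereas the KMS-34 arrays correlated at 0.878 to 0.888. Its correlation with KMS-34 replicate 1, at 0.843, was higher than that with either array of its own group. The typical probe set lay 0.185 (median, log2) from the mean of the other 2 arrays of the group on this array, against 0.094 and 0.141 on replicates 2 and 3. The same distance was 0.106 to 0.124 on the KMS-34 arrays. It was 0.07 to 0.094 on the KMS-11 and KMS-11/Cfz arrays, which share the estimate of the spread. Counts that lead a description are therefore also given without this array, written below as without replicate 1.

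In KMS-34/Cfz, 1068 genes rose (5.40% of all tested) and 928 fell (4.69%). The changes were mostly small, with a median of 0.36 for the genes that rose and -0.35 for those that fell, and 37 rises and 25 falls reached 1 on the log2 scale. The resistant arrays were all above the highest parental one for 2021 genes (10.2%) and all under the lowest for 2067 (10.5%), and 1054 of the rises and 920 of the falls were among these. Without replicate 1, 1704 genes rose (8.62%) and 1004 fell (5.08%), and they included 1037 of the 1068 rises and 735 of the 928 falls. Without KMS-34/Cfz replicate 2 the counts were 677 and 663. The change in KMS-34 was higher than that in KMS-11 for 732 genes (3.70%) and lower for 542 (2.74%) by the interaction term of the same fit. These counts also moved with single arrays, as the count of rises did. They were 1245 and 690 without replicate 1, and 480 and 387 without KMS-34/Cfz replicate 2. Without 1 of the 6 KMS-11 and KMS-11/Cfz arrays they lay between 437 and 568 and between 327 and 375. Of the genes that rose in KMS-34/Cfz, 57 also rose in KMS-11/Cfz and 49 fell there. Of those that fell, 80 also fell and 33 rose.

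The largest rise was that of CCL2, the chemokine that attracts monocytes. Its 3 resistant arrays read 2.50, 2.89 and 2.75, against 0.10, 0.01 and -0.11 on the parental arrays, a change of 2.71 ± 0.12 or 6.55-fold (adjusted p = 4.3e-08). The groups were far apart, and the change in KMS-11 was 0.06 (adjusted p of the difference between the lines = 1.9e-06). PLAC8, a small cysteine-rich protein of lymphoid and myeloid cells, read 1.74, 2.14 and 2.37 and changed by 2.08 ± 0.13 (adjusted p = 5.1e-07). In KMS-11/Cfz it fell, with a change of -0.60. SLC7A7, the y+LAT1 light chain of a transporter of cationic amino acids, read 1.90, 2.02 and 2.05, a change of 1.99 ± 0.09 (adjusted p = 4.3e-08). Next came NR2F1, the orphan nuclear receptor COUP-TF1, at 1.79, 1.76 and 1.83, and SELENOP, the secreted carrier of selenium, at 1.46, 1.78 and 1.80. Both lay wholly above the parental arrays. The long noncoding RNA MROCKI, which lies beside the gene MARCKS, read 1.23, 1.88 and 1.85, with its lowest value on the array that stood apart.

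The rest of the 15 largest rises ran from 1.26 to 1.54. BCAT1, the cytosolic transaminase of branched-chain amino acids, changed by 1.40 ± 0.09 and TUBB2B, a beta-tubulin of neurons, by 1.35 ± 0.05, the latter with arrays at 1.39, 1.36 and 1.30. MYO6, the myosin that walks towards the minus end of actin filaments, changed by 1.29 ± 0.09 and PKIG, an inhibitor of protein kinase A, by 1.29 ± 0.08. ABCB1, the drug efflux pump P-glycoprotein, was also among the 15, with arrays at 1.17, 1.27 and 1.35 (change 1.26 ± 0.08, adjusted p = 4e-07). Its 2 probe sets both passed but differed in size, at 1.995 and 0.53. The others were TMEM255A, LRP11, TSPOAP1 and BTBD3.

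**Figure D1:**
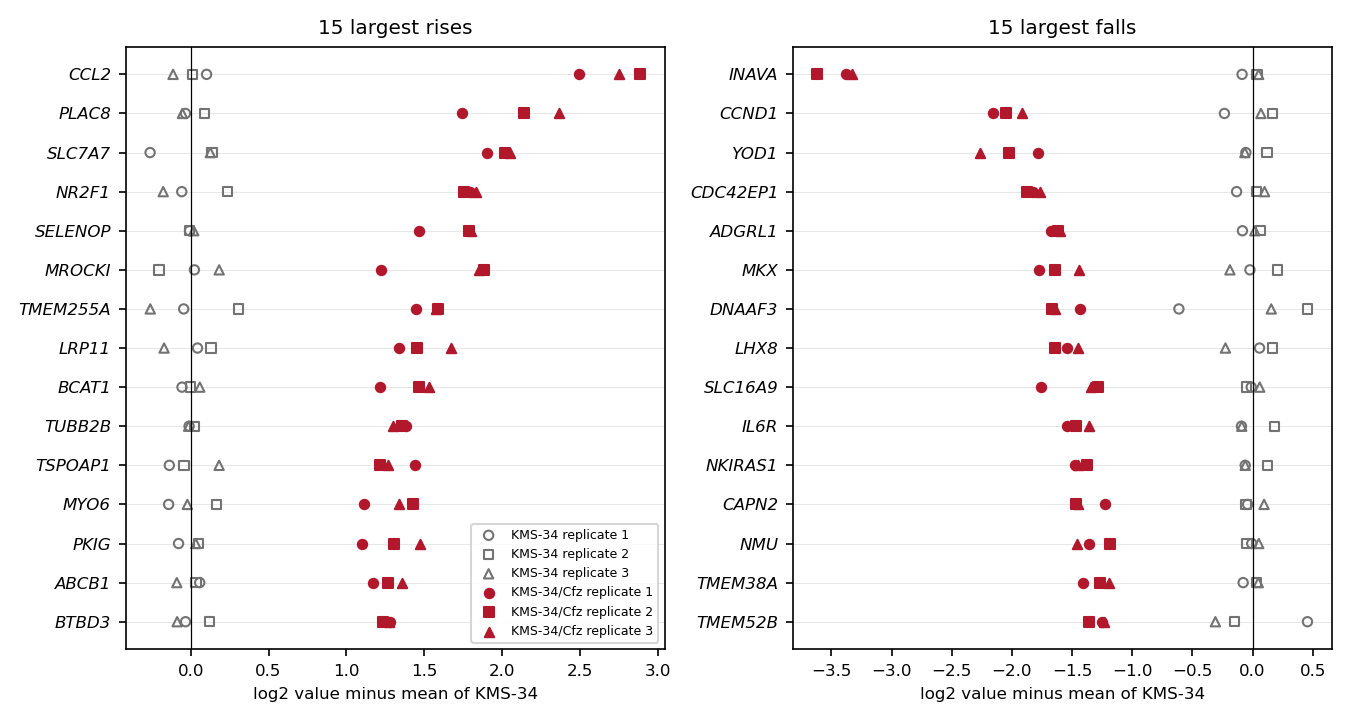
Values of the 15 largest rises (left) and 15 largest falls (right) on each array, as log2 value minus the mean of the 3 KMS-34 arrays (x axis). Open grey symbols are KMS-34 arrays and filled red symbols KMS-34/Cfz arrays, with the replicate given by the shape. By the rule that chose them, the red symbols lie wholly on one side of the grey ones, and INAVA on the right reaches -3.62.

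INAVA, an adaptor of innate immune receptor signalling and of epithelial junctions, had the largest change of all genes tested. Its resistant arrays read -3.38, -3.62 and -3.33 and its parental arrays -0.09, 0.04 and 0.05, so that the level in KMS-34/Cfz was 0.0922 of that in KMS-34 (log2 change -3.44 ± 0.08, adjusted p = 1.3e-11). In KMS-11 the change was -0.25 (adjusted p = 0.1). CCND1, the gene of cyclin D1, fell by a similar amount on every array, at -2.15, -2.05 and -1.91 (change -2.04 ± 0.10, adjusted p = 5.9e-08). It also fell in KMS-11/Cfz, by less (-0.48, adjusted p of the difference = 2.6e-05). The genes of cyclin D2 and cyclin D3 did not pass, at -0.02 and 0.01. YOD1, a deubiquitinating enzyme that works with the p97 ATPase to clear proteins from the ER, read -1.78, -2.03 and -2.27, a change of -2.02 ± 0.10 (adjusted p = 7.7e-08).

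Among the remaining large falls were genes of the cell's shape and surface. CDC42EP1, an effector of the GTPase CDC42, changed by -1.82 ± 0.09 and ADGRL1, the adhesion receptor latrophilin 1, by -1.63 ± 0.06, with arrays at -1.67, -1.62 and -1.60. IL6R, the receptor chain of interleukin-6, the main growth factor of myeloma, read -1.54, -1.47 and -1.36 and changed by -1.46 ± 0.11 (adjusted p = 3.8e-06). CAPN2, a calcium-dependent protease that remodels the cytoskeleton, changed by -1.38 ± 0.07, but its 2 probe sets did not agree, at -2.73 and -0.03, and only the first passed. NKIRAS1, a Ras-like protein that slows the degradation of the NF-kB inhibitor, changed by -1.43 ± 0.07, and NMU, a secreted neuropeptide, by -1.33 ± 0.11. The homeobox gene MKX read -1.78, -1.64 and -1.44, with probe sets between -2.44 and -0.12, and LHX8, of the same class of transcription factors, -1.54, -1.64 and -1.45. The others were DNAAF3, SLC16A9, TMEM38A and TMEM52B, and in DNAAF3 and TMEM52B the parental arrays themselves spread widely, over -0.61, 0.46 and 0.16 in the first and over 0.46, -0.15 and -0.31 in the second.

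The calls were not spread evenly over the chromosomes. Of the genes on chromosome 7, 17.7% rose, on chromosome 16, 12.1%, on chromosome 18, 9.57%, and on chromosome 20, 9.01%. Of those on chromosomes 1, 10, 4 and 3, between 11.3% and 12.8% fell. Genes were placed in chromosomal order by RefSeq (assembly GRCh38.p14), which placed 19734 of them, and the median change was taken over every run of 15 neighbours. Of 19364 such windows, 302 had a median of at least 0.2 in size, 119 of them rising and 183 falling, and 296 lay inside the stretches described below on 6 chromosomes. Another stretch, on chromosome 20, held no window of that size, and the highest window of that chromosome had a median of 0.194. Windows of that size outside the stretches lay on chromosomes 6 and 17 and were not made stretches. The highest there were SLC35A1 to RRAGD on chromosome 6 (0.204) and DBIL5P to PRPF8 on chromosome 17 (0.203). In the change of KMS-11, only 2 windows reached that size. The ends of the stretches were set after the values were seen, so their counts are a description with no test, and no measurement of DNA was used here.

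Rising stretches lay on 3 chromosomes. On chromosome 7 the genes from LOC401312 to the last one, VIPR2, rose in 159 of 813 cases and fell in 5, with a median of 0.081 and array medians of 0.101, 0.088 and 0.11. The parental arrays' own medians over the same genes ran from -0.018 to 0.016, and the other 120 genes of the chromosome had a median of -0.003. From MMP15 to PRDM7 on chromosome 16, 70 of 285 genes rose and 1 fell (median 0.115, arrays 0.069, 0.129 and 0.178). Here the parental arrays spread more, from -0.043 to 0.038. On chromosome 20, from COMMD7 to OSER1, 26 of 120 genes rose and none fell (median 0.101). The highest windows ran from SRPK2 to DUS4L on chromosome 7, with a median of 0.34 and 8 of 15 genes called as risen, and from CNTNAP4 to CMC2 on chromosome 16, at 0.30, also with 8 of 15.

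Falling stretches lay on 4 chromosomes. The one with most falls, on chromosome 1 from MAN1A2 to the last gene, PGBD2, held 905 genes, of which 216 fell and 12 rose (median -0.099, arrays -0.091, -0.134 and -0.132), whereas of the 1020 other genes of that chromosome 30 fell and 65 rose. Its lowest window, from MUC1 to YY1AP1, had a median of -0.33 with 9 of 15 genes called as fallen. On chromosome 10, from LOC441666 on, 93 of 597 genes fell (median -0.102), and on chromosome 3, over its whole length, 127 of 1119 (median -0.063). On chromosome 4, from WDR19 on, 91 of 612 genes fell, but the array that stood apart did not share the shift: its median was 0.003, against -0.108 and -0.099 on the others and -0.013 to 0.02 on the parental arrays. The lowest window there, from LAMTOR3 to SLC9B2, was low on all 3 arrays, at -0.32, -0.23 and -0.18.

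Of the 15 largest falls 7 lie on falling stretches: INAVA, YOD1, IL6R and CAPN2 on chromosome 1, NKIRAS1 on chromosome 3, NMU on chromosome 4 and SLC16A9 on chromosome 10. Of the 15 largest rises ABCB1 lies on the rising stretch of chromosome 7. PLAC8, the second largest rise, lies on the falling stretch of chromosome 4.

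Together the 3 rising stretches held 1218 genes and 255 of the 1068 rises, and the 4 falling stretches held 3233 genes and 527 of the 928 falls, or 56.8% of all falls. Outside them 759 of 15283 genes rose and 395 fell. Without replicate 1 the rising stretches held 361 rises and 15 falls and the falling ones 66 rises and 484 falls. In KMS-11/Cfz the medians of both sets were 0.004 and -0.003. For the gene groups below, the number of calls that lie on these stretches is given where it is a large part of them, and the part of the stretches in those results was not tested. Counts in these groups stand against shares over all genes of 5.40% for rises and 4.69% for falls. Without replicate 1 those shares were 8.62% and 5.08%. Groups are described with no test.

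**Figure D2:**
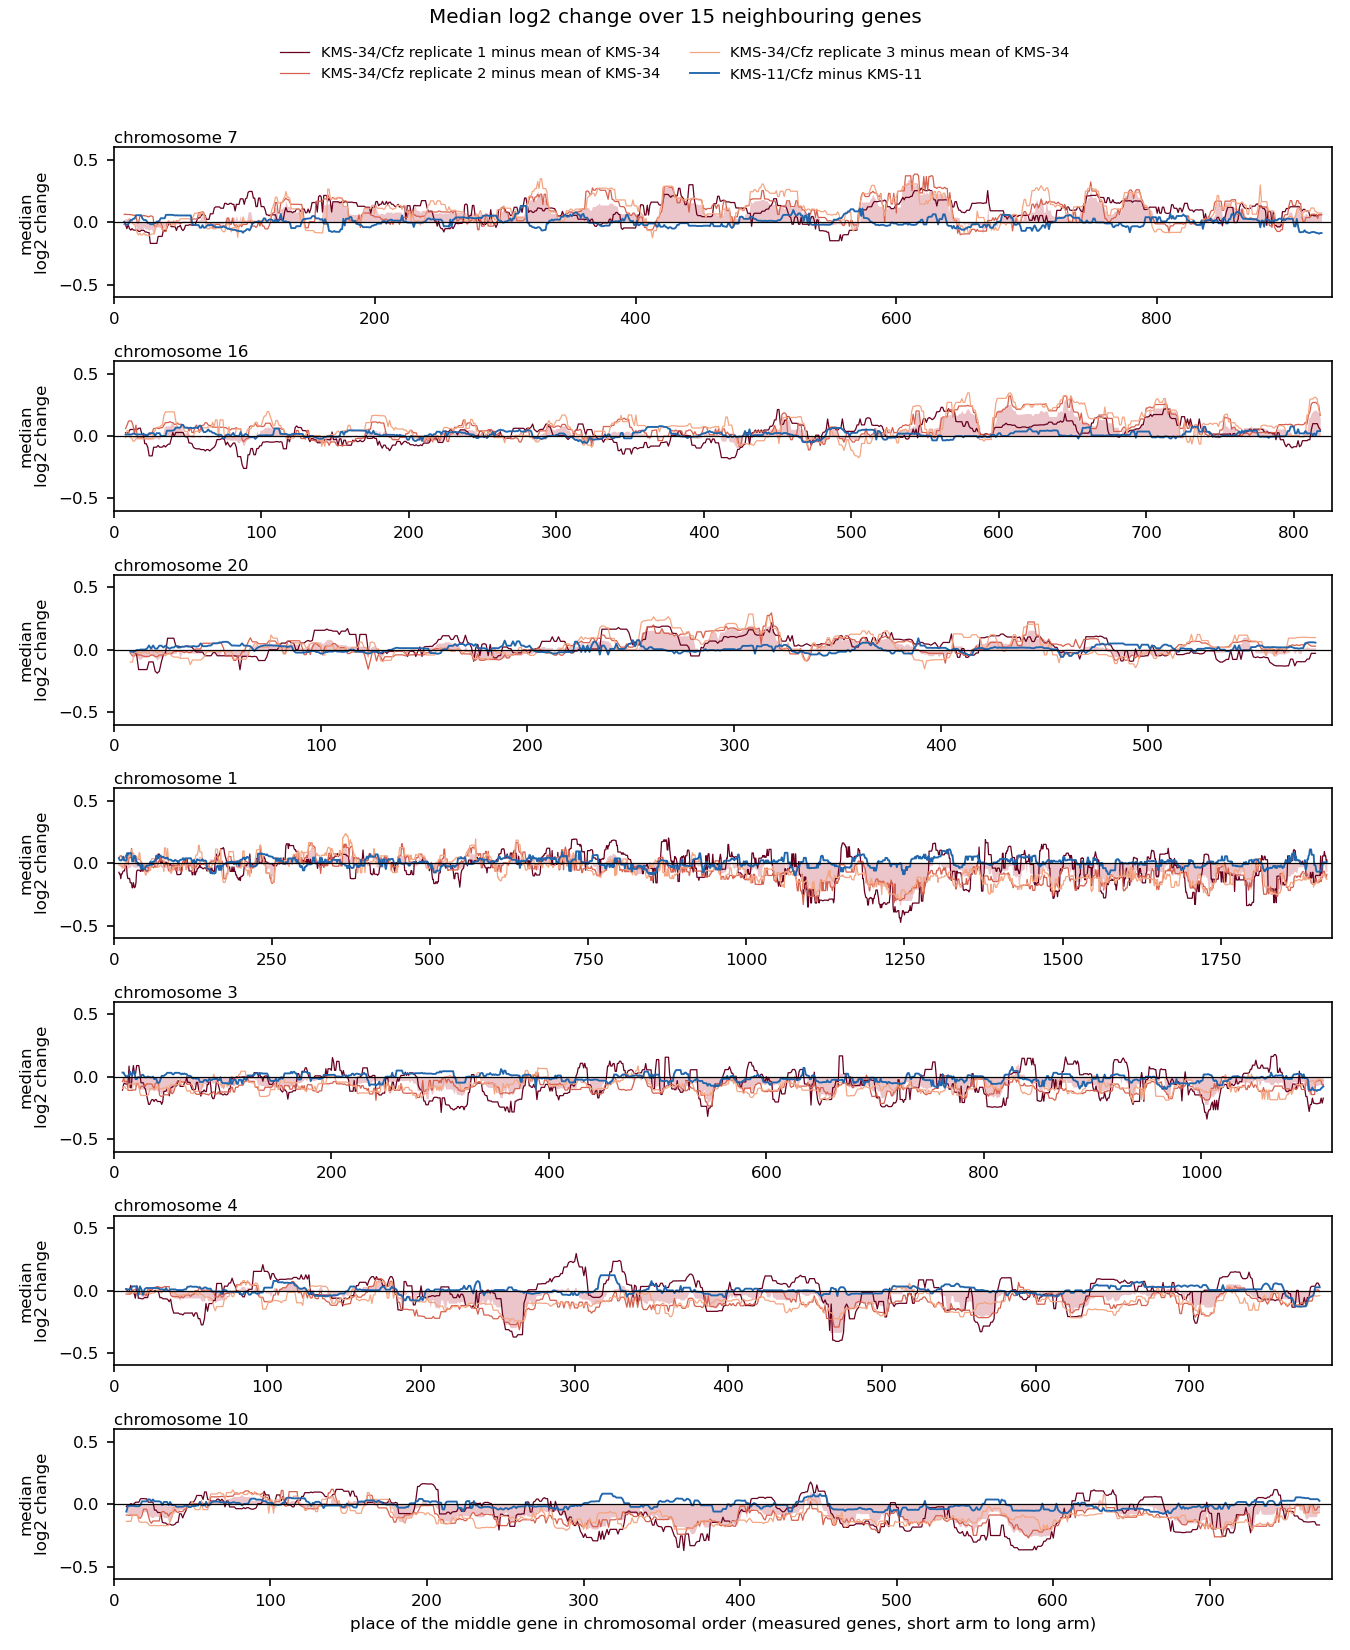
Running median of the log2 change over 15 neighbouring genes (y axis) against their place in chromosomal order (x axis, in genes) on the 7 chromosomes described. The shaded area is the change from the fit, thin red lines are the 3 KMS-34/Cfz arrays and the blue line is the change in KMS-11. The blue line keeps near 0 while the stretch of chromosome 1 runs below it, down to -0.33, and chromosome 7 above it, up to 0.34.

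Genes of the type I interferon response rose in large number. Interferons, or nucleic acids sensed inside the cell, activate transcription factors that bind a short DNA element in the promoters of many antiviral genes. Of 52 measured members of the list, 19 rose and 2 fell, with a median of 0.14 against -0.01 over all genes. Without replicate 1, 20 rose and 1 fell. Only 1 of the 19 rises lay on a rising stretch. EPSTI1, a gene of this response named for its induction at the contact of epithelium and stroma, read 0.82, 1.19 and 1.02 (change 1.01 ± 0.09, adjusted p = 1.1e-05). Next were PARP9 at 0.83, 0.97 and 1.10, PARP12 at 0.64, 0.80 and 0.91, OAS1, which makes the messenger that activates RNase L, at 0.58, 0.76 and 0.89, and IFITM1, which blocks the entry of viruses, at 0.59, 0.57 and 0.84. In each the 3 resistant arrays lay above the 3 parental ones. IFI6 changed by 0.57 ± 0.09, PARP14 by 0.55 ± 0.07 (probe sets 1.06 and 0.05), the antiviral GTPase gene MX1 by 0.55 ± 0.10 and the ISG15 ligase gene HERC5 by 0.50 ± 0.07.

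The response was not uniform. IFIT1, IRF7 and IFI27, often among the most inducible members, did not pass and overlapped the parental arrays. IFIT1 read -0.02, 0.22 and 0.01, IRF7 -0.11, 0.29 and 0.15, and IFI27 -0.34, 0.07 and 0.17. ISG15 passed at 0.45 (adjusted p = 0.016), but with its replicate 1 value at 0.17 close to the parental ones, and its adjusted p was 0.070 without KMS-34 replicate 1, 0.072 without KMS-34/Cfz replicate 2 and 0.064 without KMS-34/Cfz replicate 3. The 2 members that fell were ISG20, a ribonuclease, at -0.46 (adjusted p = 0.013), and ADAR, an RNA-editing enzyme, at -0.26 (adjusted p = 0.026). ISG20 was lost without KMS-34 replicate 3 (adjusted p = 0.061) and ADAR, which lies on the falling stretch of chromosome 1, without any of 4 arrays: KMS-34/Cfz 1 and 2 (0.051 and 0.057) and KMS-34 2 and 3 (0.063 and 0.088). Of 8 genes with IFI names, whether in the list or not, IFI6 alone rose, and IFI16 and IFI27L2 were called as fallen, the first lost without any 1 of 5 of the KMS-34 arrays (adjusted p = 0.056 to 0.15) and the second without KMS-34 replicate 2 (0.054). In KMS-11/Cfz 6 members of the list rose and 2 fell, and the KMS-34 change was higher than the KMS-11 change for 12 members and lower for 3. In the related list of interferon-gamma factors and guanylate-binding proteins, 6 of 27 rose and 1 fell (7 and 2 without replicate 1), led by NMI at 0.68 (adjusted p = 4.6e-05) and GBP1 at 0.56 (adjusted p = 0.00058). Both also rose in KMS-11/Cfz, at 0.71 and 0.51 (adjusted p of the difference = 0.94 and 0.91).

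**Figure D3:**
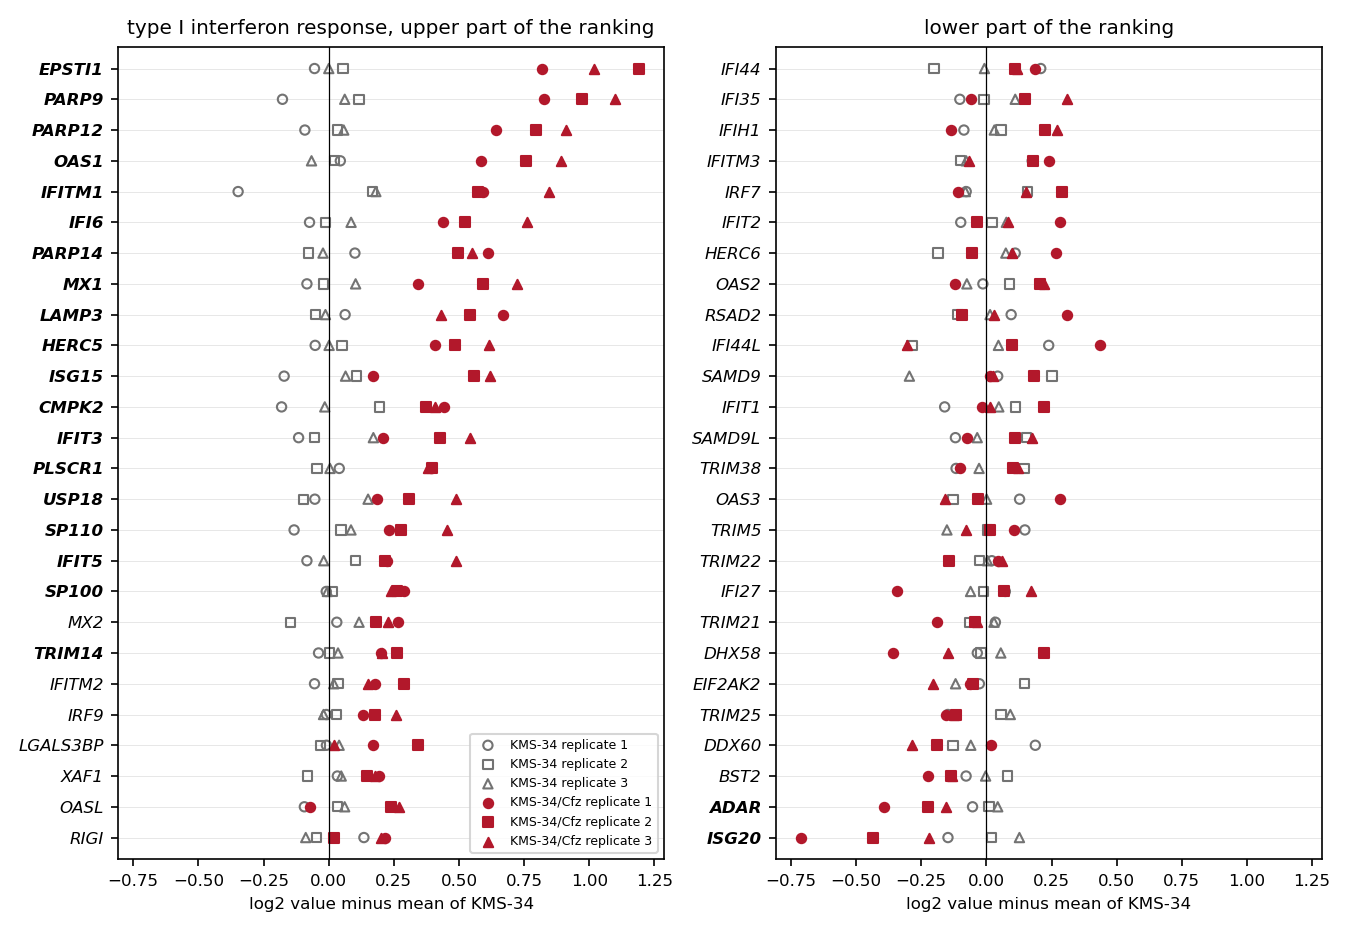
All 52 measured members of the type I interferon list on each array, as log2 value minus the mean of the 3 KMS-34 arrays (x axis), in order of their change. Open grey symbols are KMS-34, filled red symbols KMS-34/Cfz, and names in bold passed the threshold. EPSTI1 leads at 1.01, and the groups of most members on the right overlap.

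The family of poly-ADP-ribose polymerases, enzymes that attach ADP-ribose to proteins, held several of these genes. Of 13 measured members 5 rose and none fell (6 and 0 without replicate 1). Besides PARP9, PARP12 and PARP14 these were PARP8 at 0.37 (adjusted p = 0.0077) and PARP16, an ER membrane member, at 0.32 (adjusted p = 0.017). The adjusted p of PARP16 was 0.066 without KMS-34 replicate 1 and 0.065 and 0.064 without KMS-34/Cfz replicates 2 and 3. DTX3L, the ubiquitin ligase that acts in a complex with PARP9 and is its neighbour on chromosome 3, rose with arrays at 0.98, 1.05 and 1.21 (change 1.08 ± 0.08, adjusted p = 3.8e-06). Chromosome 3 as a whole was shifted the other way.

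The promoters of the interferon list were searched for the element through which such genes are known to be controlled. The core of the interferon-stimulated response element, searched as GAAANNGAA on both strands from 250 bases before to 50 bases after each gene's start (RefSeq, GRCh38.p14), was present in 8.29% of all 27305 promoters of the table and in 28 of the 42 promoters found for the list (66.7%). It was in 12 of the 17 that rose (70.6%) and in 16 of the 25 that did not (64.0%). Among the promoters of all genes that rose, 64 of 878 held it (7.29%), and of all genes tested 6.71%. A second element, the core of the antioxidant response element (TGANNNNGC), was searched in the same promoters. It was in 14 of the 17 that rose (82.4%) and in 8 of the 25 that did not (32.0%). Of all genes tested 43.0% held it, and of all genes that rose 44.0%. Differences between these shares were not tested. A match is a description of the letters and not of a bound site. The windows below hold the element of 5 genes that rose, in capitals, each written 5′ to 3′ on the strand of its gene. All 5 hold it on that strand, as does ISG15, which is not shown. In PARP12, HERC5, IFIT3, IFIT5 and TRIM14, which also rose and are not shown, the match nearest before the start is on the other strand.
EPSTI1 (chr13:42992258-42992317, minus strand): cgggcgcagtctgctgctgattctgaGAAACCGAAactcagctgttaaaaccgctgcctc
IFITM1 (chr11:313974-314033, plus strand): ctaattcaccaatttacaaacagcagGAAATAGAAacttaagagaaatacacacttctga
IFI6 (chr1:27672252-27672311, minus strand): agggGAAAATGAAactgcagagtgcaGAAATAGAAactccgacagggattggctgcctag
PARP14 (chr3:122680779-122680838, plus strand): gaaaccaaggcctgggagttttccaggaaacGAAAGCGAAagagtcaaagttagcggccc
PLSCR1 (chr3:146544653-146544712, minus strand): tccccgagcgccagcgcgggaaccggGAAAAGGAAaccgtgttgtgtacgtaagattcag

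PARP14 and PLSCR1 lie on the falling chromosome 3, yet PARP14 read 0.61, 0.50 and 0.55 and PLSCR1, a membrane phospholipid scramblase, 0.39, 0.40 and 0.38, both wholly above the parental arrays.

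Targets of ATF4, the transcription factor that cells make when amino acids run short or the ER is stressed, rose in 11 of 27 cases and fell in 1 (12 and 1 without replicate 1), with a median of 0.15. In the same genes the median of the KMS-11 change was -0.13, with no rise and 5 falls, and for 13 members the KMS-34 change was higher than the KMS-11 change. VLDLR, a lipoprotein receptor, read 0.68, 0.68 and 0.90, with parental arrays spread over 0.11, 0.19 and -0.30. PCK2, mitochondrial PEP carboxykinase, read 0.41, 0.60 and 0.73 and SESN2, a leucine sensor upstream of mTORC1, 0.45, 0.55 and 0.74. CTH, of cysteine synthesis, changed by 0.48 ± 0.09, PSPH, the last enzyme of serine synthesis, by 0.45 ± 0.10 and the pseudokinase TRIB3 by 0.43 ± 0.08. None of these overlapped the parental arrays. ASNS, asparagine synthetase, rose by 0.28 (adjusted p = 0.015), a call lost without KMS-34 replicate 2 (adjusted p = 0.053) or KMS-34/Cfz replicate 2 or 3 (0.069 and 0.052). The stress members DDIT3, the gene of CHOP, and ATF3 did not pass, at 0.15 and -0.03, nor did ATF4 itself, at 0.06. ALDH18A1, of proline synthesis, was the member that fell, at -0.37 (adjusted p = 0.0034), and it lies on the falling stretch of chromosome 10.

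Of 29 amino acid transporters 6 rose and none fell (7 and 1 without replicate 1). SLC7A7 was the largest by far. SLC7A11, the cystine importer xCT, rose by 0.45 (arrays 0.34, 0.45 and 0.55) although it lies on the falling stretch of chromosome 4, and SLC38A2, a sodium-coupled importer of neutral amino acids, by 0.36 (arrays 0.39, 0.39 and 0.30). Both differed from the KMS-11 change, by 0.58 and 0.65 (adjusted p = 0.0038 and 0.001). Among 20 genes of branched-chain amino acid breakdown 3 rose and 3 fell, also without replicate 1. Of these, 2 rises lay on rising stretches and 2 falls on falling ones. The cytosolic enzyme of the first step, BCAT1, rose while the mitochondrial one, BCAT2, fell, with arrays at -0.45, -0.25 and -0.25 (change -0.32 ± 0.07, adjusted p = 0.0092).

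At the entry to the secretory pathway falls outnumbered rises. The list of ER translocation and N-glycosylation, the steps that bring new proteins into the ER and attach sugars to them, had no rise and 15 falls among 46 members (median -0.10), and 13 fell and 1 rose without replicate 1. Of the 15 falls, 11 lay on falling stretches. Of the enzymes that build the sugar precursor, ALG3 read -0.63, -0.54 and -0.37 and ALG14 -0.44, -0.49 and -0.38. SSR2, a subunit of the translocon-associated complex, read -0.41, -0.42 and -0.36 and SRPRB, the membrane anchor of the signal recognition particle receptor, -0.49, -0.36 and -0.33. SEC62, of post-translational translocation, and SPCS3, of the signal peptidase, changed by -0.38 ± 0.08 and -0.35 ± 0.06. The KMS-11 change of this list had a median of -0.14 with 7 falls, and only 3 members had a lower change in KMS-34.

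Of 28 ER chaperones and folding enzymes 6 fell and 2 rose (median -0.15; 5 and 3 without replicate 1). The secreted survival factor MANF read -0.55, -0.46 and -0.35 and SDF2L1, a partner of the ER Hsp70, -0.69, -0.49 and -0.28, and both also fell in KMS-11/Cfz, at -0.40 and -0.40. The ER Hsp70 itself, HSPA5, did not pass, at -0.03. The KMS-11 median was lower, at -0.29 with 13 falls, and 7 members had a higher change in KMS-34 than in KMS-11. DNAJC10, a disulfide reductase of ER-associated degradation, was one of the rises in KMS-34/Cfz, with arrays at 0.36, 0.42 and 0.30. Of 17 sensors and effectors of the unfolded protein response 1 rose and 2 fell, also without replicate 1. One of the falls was ATF6, a sensor of ER stress, which changed by -0.36 ± 0.07. Of 25 genes of ER-associated degradation 2 rose and 2 fell (3 and 1 without replicate 1), shares of 8.0% each against 5.40% and 4.69% over all genes. The related genes EDEM1 and EDEM3, which trim sugars of doomed glycoproteins, moved apart, with EDEM1 at 0.24, 0.33 and 0.38 and EDEM3 at -0.81, -0.63 and -0.72. ATF6 and EDEM3 lie on the falling stretch of chromosome 1. The other fall among the 17 sensors and effectors also lay on a falling stretch. Genes of vesicle coats and Golgi trafficking fell in 5 of 44 cases and rose in 1 (6 and 3 without replicate 1), with SEC31A at -0.61, -0.45 and -0.39 and SEC24C at -0.46, -0.37 and -0.27, and 4 of the 5 lay on falling stretches.

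Cholesterol is made in the ER, by enzymes whose genes respond together to sterol shortage. Of 16 enzymes of this pathway 8 fell and 1 rose (median -0.26), and the same counts held without replicate 1. Of the 8 falls 4 lay on falling stretches. HMGCS1, which makes the precursor HMG-CoA, read -0.76, -0.48 and -0.38. SQLE, an epoxidase in the middle of the pathway, read -0.63, -0.42 and -0.43 and DHCR7, of its last step, -0.61, -0.47 and -0.42. PMVK, which acts on phosphomevalonate, read -0.72, -0.55 and -0.41. No resistant array overlapped a parental one in these 4. The one rise was SC5D at 0.30 (adjusted p = 0.018), lost without KMS-34 replicate 3 (adjusted p = 0.080) or KMS-34/Cfz replicate 2 (0.076). In KMS-11/Cfz 4 members fell and the median was -0.17, with HMGCS1 lower there, at -1.05 (adjusted p of the difference = 0.048), and PMVK unlike it, at 0.10 (adjusted p of the difference = 0.0022).

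Regulators of sterol synthesis and enzymes of fatty acid synthesis fell in 8 of 24 cases and rose in none (median -0.10; 6 fell and 1 rose without replicate 1). They included SCD, which introduces the double bond of oleate, at -0.68, -0.47 and -0.44, FASN, fatty acid synthase, at -0.52, -0.31 and -0.40, and INSIG1, the sterol-controlled brake of the pathway, at -0.43, -0.35 and -0.42. DGAT2, which forms triglycerides, changed by -0.54 ± 0.07 and differed from KMS-11 (adjusted p = 0.00048). Sphingolipid enzymes went both ways, 3 up and 3 down of 24, also without replicate 1. The sphingomyelinase SMPD3 rose by 0.71 and SGPP1, which removes the phosphate of sphingosine-1-phosphate, by 0.63, while the ceramide kinase CERK fell, at -0.59.

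**Figure D4:**
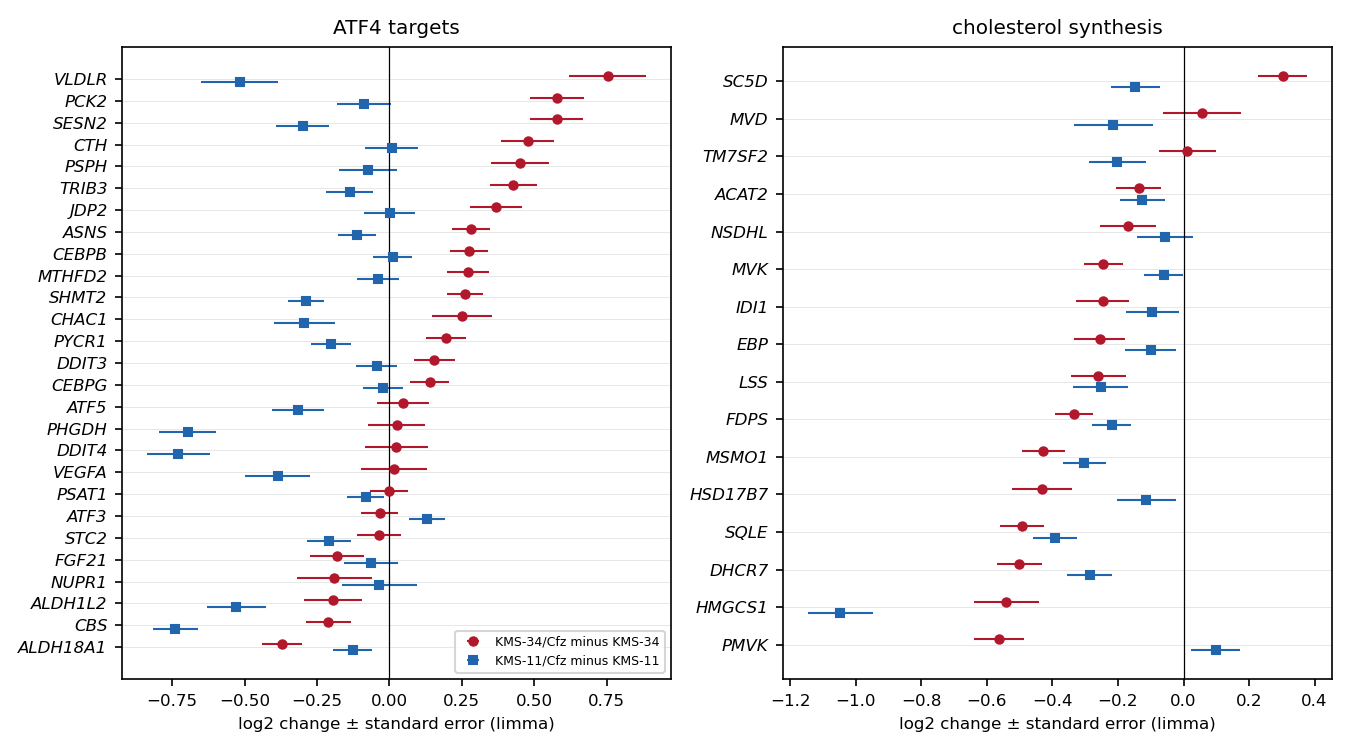
Log2 change with its standard error for the 27 measured ATF4 targets (left) and the 16 enzymes of cholesterol synthesis (right), in KMS-34/Cfz against KMS-34 (red circles) and KMS-11/Cfz against KMS-11 (blue squares). ATF4 targets lie to the right of the KMS-11 squares in most cases, and most sterol enzymes are below 0 in both lines.

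Autophagy carries cell contents to the lysosome in vesicles marked by ATG8 proteins, and receptors link the cargo to them. Of 19 receptors and ATG8 genes 7 rose and 1 fell (median 0.17), and 6 rose and 1 fell without replicate 1. MAP1LC3B, the gene of LC3B, read 0.47, 0.54 and 0.55 and TAX1BP1, a receptor of ubiquitinated cargo, 0.35, 0.47 and 0.33. They lie on chromosomes 16 and 7, and rising stretches held 3 of the 7 rises. GABARAPL1 fell, with arrays at -0.83, -0.63 and -0.50, and rose in KMS-11/Cfz by 1.05 (adjusted p of the difference = 1.3e-05). SQSTM1, the gene of p62, did not pass, at 0.04, 0.10 and 0.27. The machinery of autophagy rose in 9 of 47 cases and fell in 1 (14 and 1 without replicate 1). Its largest rise was MITF, a transcription factor of lysosomal genes, on arrays 0.73, 0.77 and 0.66 (change 0.72 ± 0.06, adjusted p = 3.7e-06). Next were DRAM1, a lysosomal membrane protein, at 0.61, TP53INP2 at 0.54 and VAMP8, of the fusion with lysosomes, at 0.47.

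Of 54 lysosomal genes 3 rose and 6 fell (5 and 7 without replicate 1). The share of rises, 5.56%, was near the 5.40% over all genes, and that of falls was 11.1% against 4.69%. The KMS-34 change was lower than the KMS-11 change in 10 lysosomal genes and higher in 1. The protease genes CTSH and CTSB moved apart, with CTSH at -0.75, -0.85 and -0.83 and CTSB at 0.37, 0.46 and 0.55. Of 9 CHMP genes, which encode the ESCRT-III filaments that close and cut membranes, 3 rose and none fell (4 and 0 without replicate 1): CHMP1A at 0.43 (adjusted p = 0.0041), CHMP4B at 0.36 (adjusted p = 0.0085) and CHMP5 at 0.36 (adjusted p = 0.031). Of these 3 rises 2 lay on rising stretches. The call of CHMP5 was lost without KMS-34 replicate 3 (adjusted p = 0.082) or KMS-34/Cfz replicate 2 or 3 (0.091 and 0.080). In the COG complex, 8 subunits that tether vesicles at the Golgi, 3 rose and 1 fell (4 and 0 without replicate 1). On chromosome 16 COG4 read 0.31, 0.46 and 0.58 and COG8 0.26, 0.50 and 0.59. COG5 on chromosome 7 read 0.27, 0.37 and 0.50. COG2 on chromosome 1 fell at -0.37 (adjusted p = 0.049), overlapped the parental arrays and lost its call on leaving out KMS-34/Cfz replicate 1 or 2 (0.10 and 0.065) or KMS-34 replicate 2 or 3 (0.14 and 0.17), with the adjusted p in brackets. Each of the 4 moved the way of the stretch it lies on.

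Among cytoskeletal genes rises outnumbered falls. Of 44 tubulin and microtubule genes 9 rose and 1 fell (11 and 2 without replicate 1). TUBB2B was followed by STMN3, a stathmin that destabilises microtubules, whose arrays spread over 0.67, 1.15 and 1.44. TUBB2A read 0.55, 0.64 and 0.72 and TUBB3, the neuronal beta-tubulin, 0.27, 0.41 and 0.46. TUBB2A and TUBB2B are close copies of each other, so their probe sets may share signal. MAP2, a microtubule-associated protein of dendrites, changed by 0.63 ± 0.11 and the dynein light chain DYNLT1 by 0.57 ± 0.07. Of 70 genes of actin, myosin and their regulators 14 rose and 3 fell (19 and 2 without replicate 1). MYO6 led, and MYO10, the myosin of filopodia, read 0.56, 0.79 and 0.64 and CNN3, a calponin, 0.48, 0.79 and 0.83.

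Annexins, proteins that bind membranes when calcium rises, split. ANXA4 read 0.83, 0.94 and 0.99 (change 0.92 ± 0.08, adjusted p = 5.9e-06) and ANXA1 0.38, 0.50 and 0.65. ANXA2 and its partner S100A10 fell, with ANXA2 at -0.49, -0.33 and -0.32 and S100A10 at -0.34, -0.25 and -0.50. In KMS-11/Cfz ANXA2 rose by 0.47, and the lines differed (adjusted p = 8e-05).

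Of 52 surface antigens of myeloma 10 fell and 2 rose (12 and 2 without replicate 1), and 4 of the falls lay on falling stretches. SLAMF7, the target of the antibody elotuzumab, changed by -0.995 and also fell in KMS-11/Cfz (-0.97, adjusted p of the difference = 0.95). CD55, which protects cells from complement, read -0.75, -0.60 and -0.62 and CD99 -0.66, -0.54 and -0.41. NCAM1, the gene of CD56, read -0.44, -0.41 and -0.48, but its 7 probe sets ran from -1.63 to 0.18 and 3 of them passed. CD55, CD99 and NCAM1 differed from the KMS-11 change. CD70 and CD48 changed by -0.50 ± 0.09 and -0.41 ± 0.08. SDC1, the gene of the plasma cell marker CD138, did not pass, at -0.12, -0.08 and 0.04, and neither did CD38, at 0.16, 0.44 and 0.43.

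Receptors and growth factors of myeloma fell in 6 of 54 cases and rose in 1 (8 and 1 without replicate 1). HGF, hepatocyte growth factor, changed by -1.09 ± 0.08 (adjusted p = 2e-06) although it lies on the rising stretch of chromosome 7. IL10RA, a chain of the interleukin-10 receptor, read -0.44, -0.40 and -0.48. IL27RA was the one that rose, at 0.49 (adjusted p = 0.0029). Adhesion molecules fell in 6 of 52 cases and rose in 1 (7 and 2 without replicate 1). PECAM1, the gene of CD31, read -0.56, -0.74 and -0.72 and SELPLG, the ligand of P-selectin, -0.77, -0.57 and -0.47, whereas ICAM1 rose, at 0.19, 0.47 and 0.61. Among chemokines and their receptors 4 of 43 rose and 1 fell (5 and 4 without replicate 1). Besides CCL2 these were CX3CR1 at 0.43, 0.79 and 0.74 (probe sets 1.23 and 0.07), CXCR4, the receptor that holds plasma cells in bone marrow, at 0.55, 0.67 and 0.64, and CCL5 at 0.43, 0.56 and 0.69. In KMS-11/Cfz CX3CR1 fell, at -0.69 (adjusted p of the difference = 9.6e-05). Of the Toll-like receptor list 3 of 28 rose and 3 fell (7 and 2 without replicate 1), and the lipopolysaccharide receptor TLR4 and its partner LY96 were both among the rises, with TLR4 at 0.65, 0.63 and 0.76 and LY96 at 0.90, 0.97 and 1.03. Their co-receptor CD14 was among the falls, at -0.32 (adjusted p = 0.031), a call lost without any of 4 arrays: KMS-34/Cfz 1 and 2 (adjusted p = 0.074 and 0.051) and KMS-34 2 and 3 (0.086 and 0.13).

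Transcription factors of the B lineage went both ways, with 3 of 35 up and 6 down (5 and 6 without replicate 1). TCF4, an E protein, read 0.55, 0.66 and 0.67 and IRF8, of early B cells, 0.39, 0.60 and 0.55. On the other side KLF2 read -0.61, -0.65 and -0.45, IKZF3, the target of lenalidomide, -0.43, -0.43 and -0.34 (not called with its most variable probe set alone, adjusted p = 0.18), and IRF4, on which myeloma cells depend, -0.48, -0.27 and -0.21. XBP1, which drives the secretory program, did not pass (0.03). Signalling genes of the B cell receptor rose in 7 of 32 cases and fell in 2 (9 and 3 without replicate 1), with PRKCB, a kinase downstream of the receptor, at 0.62, 0.71 and 0.84 and PLCG2, the phospholipase that activates it, at 0.37, 0.55 and 0.69. Of the 7 rises 2 lay on rising stretches, PLCG2 among them. The falls were BANK1, a scaffold of B cell receptor signalling on the falling stretch of chromosome 4, at -1.03 (adjusted p = 3.7e-05), and LILRB1, an inhibitory receptor, at -0.56 (adjusted p = 0.00061). Of the oncogenes, MYC read -0.46, -0.26 and -0.27 (change -0.33 ± 0.07, adjusted p = 0.0074, but 0.081 with the KMS-34 arrays alone). NSD2, which the t(4;14) translocation places under an immunoglobulin enhancer, read -0.39, -0.23 and -0.23 (change -0.28 ± 0.07, adjusted p = 0.015), lost without KMS-34 replicate 2 (adjusted p = 0.052), and its neighbour at the breakpoint, FGFR3, did not pass, at -0.26, -0.10 and -0.04.

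In MAPK signalling 7 of 42 genes rose and 2 fell (12 and 2 without replicate 1). DUSP6, a phosphatase of ERK that is itself induced by ERK, read 0.82, 0.91 and 0.90 (change 0.88 ± 0.10, adjusted p = 9.1e-05) and the immediate early gene EGR1 0.62, 0.90 and 0.91. In KMS-11/Cfz DUSP6 fell, at -0.58 (adjusted p of the difference = 4.2e-05). IER5 was among the falls, at -0.53 (adjusted p = 0.00024), and the 2 falls lay on falling stretches. In the Notch list 3 of 33 rose (9.09%) and 2 fell (6.06%), against 5.40% and 4.69% over all genes, and the counts were the same without replicate 1. The rises were the coactivator MAML2 at 0.79, the target HEY1 at 0.68 and HES6 at 0.46. TNFAIP3, the gene of the NF-kB inhibitor A20, rose by 0.57. In the NF-kB list 3 of 35 genes rose and 3 fell (4 and 3 without replicate 1), shares of 8.57% each against 5.40% and 4.69% over all genes.

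In the cell cycle rises outnumbered falls outside the histone genes. Of 47 DNA replication genes 7 rose and 1 fell (median 0.10), and without replicate 1 the counts were 14 and 0. Replicate 1 did not share the shift: its median over these genes was -0.002, against 0.137 and 0.143 on the other resistant arrays and -0.048 to 0.061 on the parental ones. The helicase subunit gene MCM7 on chromosome 7 read 0.25, 0.40 and 0.44 and the licensing factor gene CDT1 on chromosome 16 0.34, 0.40 and 0.35, and 4 of the 7 rises lay on rising stretches. Of 46 mitosis genes 7 rose and 2 fell (12 and 1 without replicate 1, array medians 0.006, 0.094 and 0.109), among them ANLN at 0.43 (adjusted p = 0.0017) and CDC25B at 0.42 (adjusted p = 0.0015). Of these calls, 2 rises lay on rising stretches and the 2 falls on falling ones. CCNE2, of the entry into S phase, rose by 0.51, whereas CCND1 fell as given above. Replication-dependent histone genes fell in 7 of 37 cases and rose in none (median -0.13; 7 and 1 without replicate 1), with the linker histone H1-2 at -1.54, -1.19 and -0.99 and H2BC9 at -0.84, -0.49 and -0.50. They fell in KMS-11/Cfz too, in 12 cases, where H1-2 changed by -0.89. Histone genes are close copies, so the probe sets of one may read another.

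Of 27 targets of p53 and GADD45 genes 6 rose and 2 fell (8 and 1 without replicate 1). PMAIP1, the gene of the death-promoting BH3 protein NOXA, read 0.81, 0.90 and 0.70 (change 0.80 ± 0.08, adjusted p = 3.1e-05) and GADD45A 0.57, 0.57 and 0.66. In the BCL2 family PMAIP1 and 1 other gene, BMF, rose and none of 22 fell (5 and 0 without replicate 1). The survival genes MCL1, BCL2 and BCL2L1 did not pass, at -0.29, 0.22 and 0.23. CASP1, which activates interleukin-1 beta, rose, at 0.58, 0.78 and 0.85. DNA repair genes rose in 4 of 55 cases and fell in none (8 and 0 without replicate 1), with RAD51D at 0.33, 0.56 and 0.67, and the share of rises, 7.27%, was near the 5.40% over all genes. Of 92 chromatin genes 5 rose and 4 fell, shares close to those over all genes (6 and 2 without replicate 1), and 4 of the 5 rises lay on rising stretches. They included the DNA methyltransferase DNMT3B on chromosome 20, at 0.56, 0.66 and 0.57, and EZH2, the methyltransferase of the Polycomb complex, on chromosome 7, at 0.44, 0.43 and 0.37.

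Among 32 ABC transporters of drugs ABCB1 alone rose, and 1 fell (2 and 0 without replicate 1). ABCG2 and ABCC1, other pumps linked to drug resistance, did not pass, with ABCG2 at 0.36, 0.10 and 0.04 and ABCC1 at -0.19, -0.10 and 0.01. The gene beside ABCB1 in the order of chromosome 7, ABCB4, a phospholipid exporter, read 0.43, 0.08 and 0.40 and overlapped the parental arrays (adjusted p = 0.074). The change of ABCB1, 1.26, was above that of its neighbour, 0.30, though the difference between them was not tested.

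Targets of NRF2, the factor that switches on antioxidant genes, had 1 of 26 up and 1 down (3 and 1 without replicate 1), whereas 6 rose in KMS-11/Cfz, and 5 had a lower change in KMS-34. The fall was EPHX1, an epoxide hydrolase on the stretch of chromosome 1, with arrays at -0.71, -0.89 and -0.82 (change -0.81 ± 0.10), against 0.27 in KMS-11 (adjusted p of the difference = 0.00048). Of 41 glutathione and thiol enzymes 4 rose and 5 fell, also without replicate 1, and all 5 falls lay on falling stretches. GPX4, which reduces lipid peroxides, read 0.22, 0.30 and 0.34 and GSTK1, a mitochondrial glutathione transferase on chromosome 7, 0.25, 0.39 and 0.37, while the peroxiredoxin PRDX6 on chromosome 1 read -0.34, -0.26 and -0.22.

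In nutrient signalling through PI3K, AKT and mTOR 6 of 45 genes rose and 2 fell (10 and 1 without replicate 1). AKT1, the kinase at its centre, read 0.26, 0.54 and 0.63. RRAGD and RRAGB, GTPases that bring mTORC1 to the lysosome, moved apart, with RRAGD at 0.46, 0.55 and 0.62 and RRAGB at -0.43, -0.45 and -0.42. SESN3, a relative of SESN2, read 0.46, 0.46 and 0.40. Of 53 genes of nucleotide and one-carbon metabolism 5 rose and 6 fell (8 and 5 without replicate 1). Of purine synthesis, PPAT read -0.63, -0.48 and -0.43 and PAICS, its neighbour on the falling stretch of chromosome 4, -0.40, -0.25 and -0.24 (not called with its most variable probe set alone, adjusted p = 0.26). ADA, adenosine deaminase, read 0.28, 0.42 and 0.34 and fell in KMS-11/Cfz, at -0.46 (adjusted p of the difference = 0.00015).

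Ion channels rose in 9 of 74 cases and fell in 3 (12 and 5 without replicate 1). MCOLN3, a cation channel of endosomes and lysosomes, read 0.54, 0.46 and 0.75 and the potassium channel KCNQ1 0.36, 0.48 and 0.46. KCNS3, a modifier of potassium channels, read -0.44, -0.36 and -0.36 and rose in KMS-11/Cfz by 0.77 (adjusted p of the difference = 1.3e-05). Of 45 genes of ID proteins and the BMP and TGF-beta pathways 4 rose and 3 fell (5 and 3 without replicate 1). ID1, an inhibitor of E proteins such as TCF4, read 0.37, 0.78 and 1.04 and TGFBR3, a co-receptor, 0.49, 0.73 and 0.84. Receptors of lymphocytes that couple to G proteins fell in 5 of 52 cases and rose in 1 (4 and 3 without replicate 1), led by P2RY10, which responds to lysophosphatidylserine, with arrays at -1.35, -1.11 and -1.07 (change -1.18 ± 0.11, adjusted p = 1.7e-05).

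In the energy and protein machinery few genes of the respiratory chain passed. Complex I subunits rose in 1 of 33 cases and fell in 2, and those of complexes II to V fell in 1 of 35, also without replicate 1. That one was SDHC, a membrane subunit of succinate dehydrogenase on the falling stretch of chromosome 1, whose arrays agreed closely at -1.06, -1.06 and -1.06 (change -1.06 ± 0.06, adjusted p = 9.5e-08) while KMS-11 changed by 0.07. Mitochondrial ribosome genes fell in 6 of 75 cases and rose in 1 (6 and 4 without replicate 1), with MRPS21 at -0.90, -0.76 and -0.66 and MRPL1 at -0.73, -0.62 and -0.61, and 5 of the 6 lay on falling stretches. Cytosolic ribosome genes fell in 3 of 52 cases, all 3 on such stretches, and rose in none, also without replicate 1. The share of falls, 5.77%, was near the 4.69% over all genes. In 15 of the 52 all resistant arrays lay below the parental ones, and in none above them, against 10.5% and 10.2% of all genes. Their median change was small, at -0.04. Of 22 genes of glycolysis 4 fell and none rose (2 and 0 without replicate 1), with a median of -0.04. The aldolase gene ALDOC read -0.68, -0.69 and -0.47, and its KMS-11 change was -0.59. Deubiquitinating enzymes rose in 6 of 61 cases and fell in 4 (10 and 3 without replicate 1), shares of 9.84% and 6.56% against 5.40% and 4.69% over all genes. All 4 falls, YOD1 among them, lay on falling stretches.

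**Figure D5:**
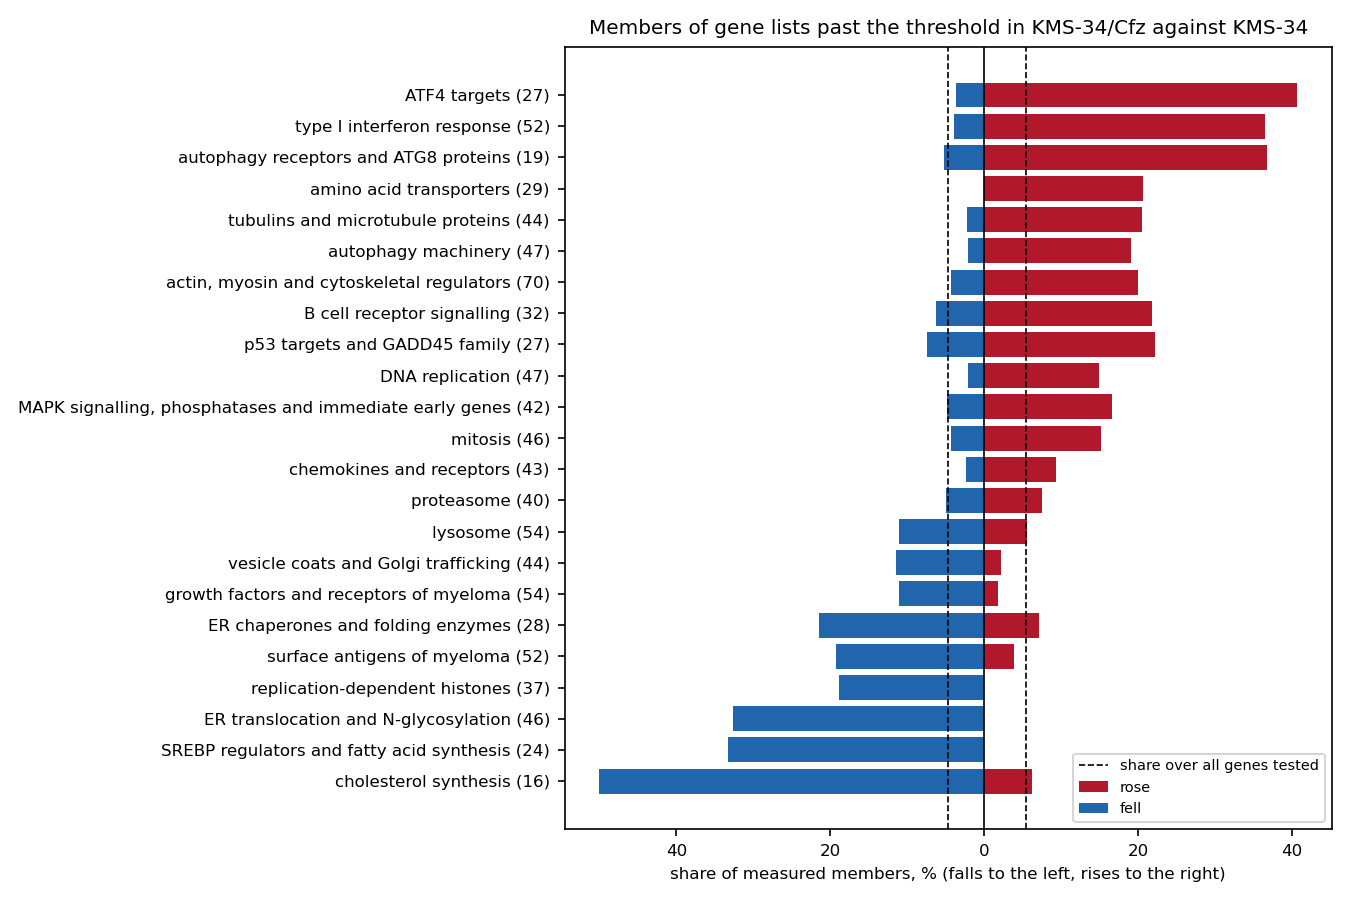
Share of the measured members of 23 gene lists that rose (red, to the right) or fell (blue, to the left) in KMS-34/Cfz, in %, with the number of members in brackets. Dashed lines mark the shares over all genes, 5.40% and 4.69%. ATF4 targets have the largest share of rises among the lists plotted, at 40.7%, and cholesterol synthesis, with 8 of 16, the largest share of falls.

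Markers of other cells were looked at because a shift in them would bear on the other groups. None of 21 markers of T and NK cells rose or fell. Of 15 markers of monocytes and neutrophils CD14 alone fell, and none rose. Among 10 of red cells and platelets the globin genes HBD and HBB fell, with HBD at -1.38, -1.23 and -1.13 and HBB at -0.27, -0.29 and -0.31, the latter lost without KMS-34 replicate 1 (adjusted p = 0.063), and of 13 of stroma and endothelium PECAM1 alone. Summed levels could not be given, because the values are centred. Whether these genes had a part in any result above was not tested.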

How the data were processed

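The authors hybridised total RNA of triplicate samples to Affymetrix U133 Plus arrays, 1 colour and 1 array per sample, and deposited log2 values made by RMA (background correction, quantile normalization and probe summary), per the labels. Its version is not given in the sources used here. That the scale is log2 was taken from RMA and the range of the values (-7.75 to 8.64), and the centring of each probe set from the values themselves. Array medians lay between -0.017 and 0.013. Of 54613 probe sets 41091 named 1 gene, 1801 named several and 11721 none by the platform annotation, and probe sets of a gene were averaged, giving 19775 genes (10523 with more than 1 probe set). No filter on dim probe sets could be set, since the values hold no level.

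Samples were grouped by their cell line label. A model of the 4 group means over 12 arrays was fitted with limma 3.58.1 in R 4.3.3 and moderated by empirical Bayes, with Benjamini-Hochberg adjustment over all genes and a threshold of 0.05, and the interaction was the KMS-34 change minus the KMS-11 change. The script was tested on simulated data. Gene lists (79, with 3139 genes), their members and the comparison were chosen with earlier results of these data known. Named genes were the 15 largest rises and falls without overlap of arrays, up to 6 members each way in a list and the members that define its role. HERC5, MX1, PLSCR1 and other members beyond these were chosen after their values were seen. Same-numbered arrays of the parental and resistant groups deviated together at correlations of 0.56, 0.37 and 0.05 in KMS-34 and -0.01, 0.13 and 0.04 in KMS-11, and the labels give no shared culture or day, so they were not treated as pairs. Alternatives were a fit of only the KMS-34 arrays, a replicate block, array weights, medians set equal, robust moderation, 1 probe set per gene, each probe set by itself, stricter thresholds and each array left out.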

Additional observations from a re-analysis of the deposited data

Results flagged for a closer look

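The change in KMS-34 and that in KMS-11 differed by the interaction term of the limma fit for 732 genes that were higher and 542 that were lower in the KMS-34 change, and these included each of the 30 genes with the largest changes in KMS-34/Cfz. The values here are the KMS-34 change minus the KMS-11 change on the log2 scale. Among the rises the difference was 2.66 for CCL2, 2.68 for PLAC8, 1.57 for SLC7A7, 1.84 for NR2F1, 1.67 for SELENOP, 1.55 for MROCKI, 0.84 for TMEM255A, 1.08 for LRP11 and 1.27 for BCAT1. It was 1.3 for TUBB2B, 0.98 for TSPOAP1, 1.45 for MYO6, 1.24 for PKIG, 1.3 for ABCB1 and 1.56 for BTBD3. Among the falls the difference was -3.19 for INAVA, -1.56 for CCND1, -1.79 for YOD1, -1.96 for CDC42EP1, -1.68 for ADGRL1, -1.53 for MKX, -1.6 for DNAAF3 and -1.54 for LHX8. It was -1.36 for SLC16A9, -1.3 for IL6R, -1.61 for NKIRAS1, -1.11 for CAPN2, -1.43 for NMU, -1.27 for TMEM38A and -1.3 for TMEM52B. These 30 genes were chosen for the size of their change in KMS-34, so their differences describe them and give no independent support. Groups held 3 arrays each, too few to call 1 array extreme by itself. Across the whole fit 82 genes were called in both lines in opposite directions.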

How the results depend on the processing

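Named genes were followed through the KMS-34 arrays alone, the replicate block, array weights, medians set equal and 1 probe set per gene. They were also followed through each omission of a KMS-34 array and the joint omission given last. Robust moderation, single probe sets and stricter thresholds were not among these. Of the 187 named genes that passed, 174 kept their call when any 1 of the 6 KMS-34 arrays was left out and 154 under every alternative so followed. The KMS-34 arrays alone lost 31 of them, with adjusted p between 0.050 and 0.21: ADAR, ASNS, ATF6, BCAT2, BMF, CD14, CHMP4B, CHMP5, COG2, COG5, DNAJC10, EDEM1, GPX4, HBB, ICAM1, IFI16, IFI27L2, IRF4, ISG15, ISG20, MYC, NSD2, PAICS, PARP16, PARP8, PRDX6, PSPH, S100A10, SC5D, SEC62 and SPCS3. That fit had fewer arrays behind the spread. It also left out the KMS-11 and KMS-11/Cfz arrays, whose distances within their groups, 0.07 to 0.094, were smaller than those of the KMS-34 and KMS-34/Cfz arrays, 0.094 to 0.185. The part of each in the loss was not tested. The most variable probe set in place of the mean lost 8, with adjusted p = 0.18 for IKZF3, 0.26 for PAICS, 0.28 for IFI16, 0.051 for PSPH, 0.063 for TAX1BP1, 0.057 for ADAR, 0.050 for CD14 and 0.063 for CHMP5. All 32 lists and stretches with a median of at least 0.05 in size kept its sign under the same alternatives as the named genes, and no named gene reversed under them. Counts of genes moved more. For 1068 rises and 928 falls the KMS-34 arrays alone gave 435 and 319, single probe sets 1912 and 1629, an adjusted p under 0.01 561 and 461, and a change of at least 1.5-fold 166 and 109, and array weights, which gave KMS-34/Cfz replicate 1 the lowest weight (0.208), 1730 rises. For the 732 and 542 genes that differed from KMS-11, array weights gave 1637 and 1075, single probe sets 1188 and 834, an adjusted p under 0.01 306 and 233, and at least 1.5-fold 290 and 203. Leaving out 1 array gave 677 to 1704 rises, 660 to 1004 falls, 437 to 1245 higher and 327 to 690 lower changes. The cause was not tested. The replicate block gave 1107 rises, 987 falls, 748 higher and 544 lower changes and changed no call of a named gene, and 2 of 3 KMS-34/Cfz arrays correlated best with their own number in KMS-34. KMS-34/Cfz 1, KMS-34 1 and KMS-11 3 deviated together (correlations 0.36 to 0.56), and without these 3, an alternative chosen after seeing the data, there were 1209 rises and 917 falls.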
